A study of Homo sapiens with 20 samples.

Results

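Aurora-A (AURKA) and 6 genes whose products act with it in mitosis were followed through lists of differential splicing from HEK293T, an established line of transformed cells from human embryonic kidney. The members were fixed by name as AURKA, AURKB, TPX2, BORA, INCENP, TACC3 and PLK1, and every row whose gene symbol equalled one of these names was taken. Of the 7 genes, 6 had a listed event, among 7112 genes with an event anywhere, and the 6 held 25 of 26803 listings. TACC3 had none in any table.

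The 20 samples form 10 groups of 2. In set 1, cells received MLN8237 (alisertib), an Aurora-A inhibitor whose dose is not given in the sources used here, or the solvent DMSO, for 24 hours. In set 2, siRNA against SRSF1, SRSF2, SRSF7 or SF3B5 was compared with the non-targeting siNT1, and in set 3 siRNA against SRSF3 or RBM39 with the non-targeting siNT2, in each case 48 hours after transfection. SRSF1, SRSF2, SRSF3 and SRSF7 are SR proteins, which bind exons and promote their splicing. RBM39 is an SR-like splicing factor, and SF3B5 belongs to SF3b, the complex that finds the branch point of an intron. The design asks whether Aurora-A works together with regulators of splicing. Whether the samples of a group were separate cultures is not stated, and neither the loss of the depleted proteins nor the inhibition of the kinase was checked here.

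The measured quantity is the percent spliced in (PSI), the percent of a gene's transcripts that carry an exon, keep an intron or use a splice site. Each PSI below is the authors' average over the 2 samples of a group, read from the authors' deposited tables. No value per sample was analysed, so no SD stands behind a PSI, the number of reads behind it is not known, and none of the events could be tested again. The smallest change listed in any table was 15.005 percentage points. A gene without a listing may have changed by less, or may have had too few reads, so a missing event is not evidence of unchanged splicing. All comparisons with siNT1 share its 2 samples, as do both comparisons with siNT2.

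As background, Aurora-A sits at centrosomes and spindle poles. TPX2 binds it, switches it on and brings it to spindle microtubules. BORA is the cofactor with which Aurora-A phosphorylates PLK1, the kinase that drives entry into mitosis and spindle assembly. TACC3 is an Aurora-A substrate that joins clathrin and the microtubule polymerase CKAP5 on spindle fibres. Aurora-B (AURKB) is a close relative that works at centromeres and the spindle midzone in the chromosomal passenger complex, which INCENP scaffolds and activates.

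MLN8237 gave no listed event in AURKA or in any of its 6 partners. That table held 205 events in 194 genes, 2.73% of the genes with an event in any table, so finding none among 7 genes is no result about them. SRSF7 depletion (1768 events, 19.7% of genes) also gave none. SRSF1 depletion gave events in 2 of the 7 genes (22.4%) and SRSF2 depletion in 1 (27.1%). SRSF3 depletion gave them in 2 (39.4%), RBM39 depletion in 3 (36.5%) and SF3B5 depletion in 4 (71.0%). All these shares are of the genes with an event in any table, which leave out TACC3. Of the 25 listings, 16 came from the SF3B5 table, which was also the longest, with 11832 events.

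The 25 listings were 18 distinct events, of which 14 were exons, 2 were introns of AURKB and 2 were alternative splice sites of AURKB. Of the 21 exon listings, 19 were lower after treatment and 2 were higher. Over the whole series 18448 of 21103 exon listings were lower, so the lean toward lower inclusion was shared with the tables as a whole. The median absolute change of the 25 listings was 26.2 points, and that of all listed events was 23.1 points. After SF3B5 depletion, the source of 16 of the 25 listings, these medians were 27.9 and 25.4 points. After SRSF1 depletion they were 19.0 and 21.5 points. After SRSF2 depletion, with 1 listing, they were 35.7 and 22.1 points. SRSF3 depletion gave 23.2 and 23.0 points, and RBM39 depletion 21.9 and 21.7 points. The gap thus differed in size and direction between comparisons, and it was not tested.

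**Figure D1:**
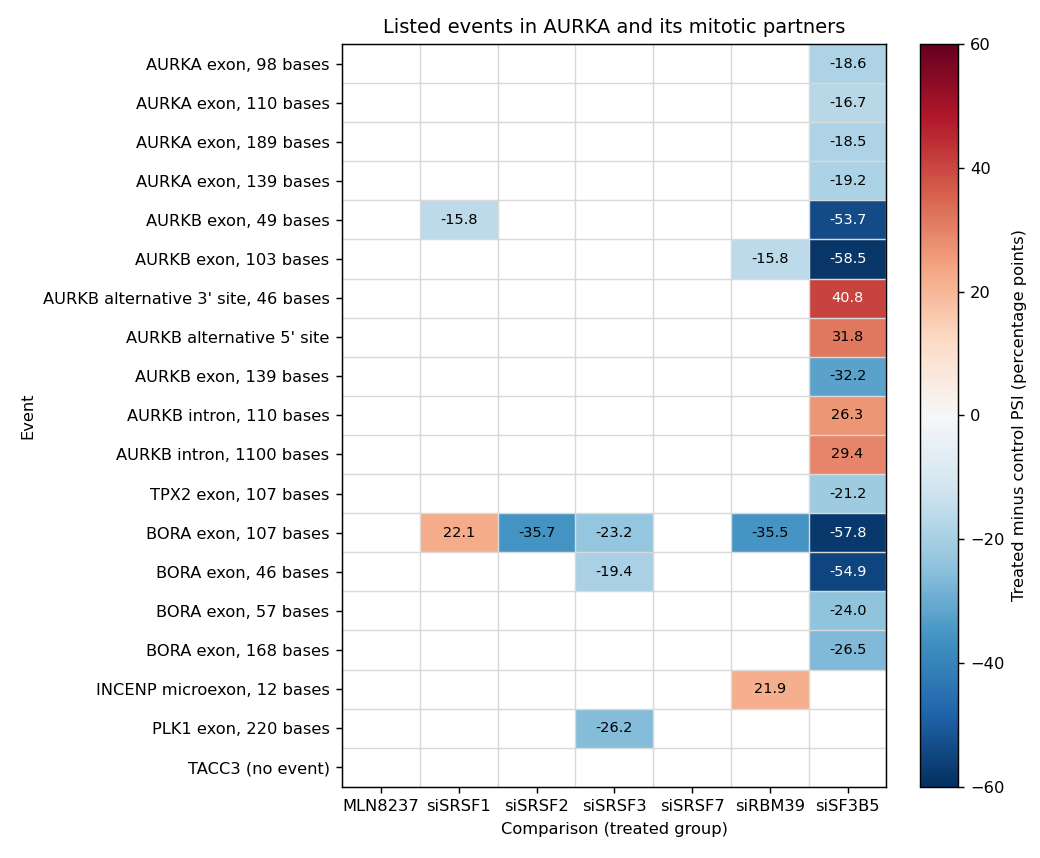
Treated minus control PSI in percentage points (colour and printed value) for each listed event of the 7 genes (rows) in each of the 7 comparisons (columns); an empty cell is an event that was not listed. The 107-base BORA exon has values in 5 columns, the siSF3B5 column holds 16 of the 25 values, and the MLN8237 and siSRSF7 columns are empty.

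BORA was the member listed after the most depletions. Its 107-base exon was listed in 5 of the 6 depletion tables, and the adjoining 46-base exon in 2 of them. Both are coding, and they are exons 3 and 4 of the 12 in BORA-203, the reference transcript used here (gene ENSG00000136122.15, chromosome 13, plus strand). By their length, which a single annotated exon of the gene has in each case, they lie at 72731281 to 72731387 and 72734960 to 72735005 on GRCh38. Their sequences are shown because removing the first changes how the second is read; capitals mark the first stop codon then in frame.
BORA 107-base exon: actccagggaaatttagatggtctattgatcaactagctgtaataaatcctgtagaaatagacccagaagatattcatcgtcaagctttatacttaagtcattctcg
BORA 46-base exon: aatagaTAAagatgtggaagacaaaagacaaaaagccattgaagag

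In the siNT1 cells the 107-base BORA exon had a PSI of 71.5%. After SRSF1 depletion it was at 93.6%, which is 22.1 points higher and close to full inclusion. After SRSF2 depletion it was at 35.8%, or 35.7 points lower, against the same control cells. After SF3B5 depletion it was at 13.7%, so that most BORA transcripts with a measured junction lacked the exon. In siNT2 cells it was at 79.1%, and there it was at 55.8% after SRSF3 depletion and 43.6% after RBM39 depletion. SRSF1 depletion therefore stood opposite to the other 4 depletions in direction, and SF3B5 depletion gave the lowest level. Against the listed exons of each table, 62.6% were lower after SRSF1 depletion, 73.5% after SRSF2, 80.9% after SRSF3, 89.3% after RBM39 and 97.9% after SF3B5 depletion, so a higher BORA exon is the less common direction in the SRSF1 table (37.4% of its exons).

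The change of the 107-base BORA exon was larger than 96.0% of listed changes in the SF3B5 table, 88.1% in the RBM39 table and 84.7% in the SRSF2 table. It was near the middle in the SRSF1 table (53.4%) and the SRSF3 table (51.2%). Without any depletion the siNT2 cells were 7.57 points above the siNT1 cells for this exon. Over the 3392 events with both controls in the tables, the median absolute gap between the controls was 2.71 points and the 90th percentile was 10.0 points. Every listed change is at least 15.005 points, so all 5 changes of the exon had to exceed these gaps. That they did carries no information, and no spread between replicates was available to test them.

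The 46-base BORA exon was at 79.7% in siNT2 cells and 60.3% after SRSF3 depletion, a difference of 19.4 points. It was at 74.3% in siNT1 cells and 19.5% after SF3B5 depletion, a difference of 54.9 points. In both tables it was lower together with the 107-base exon beside it. These neighbouring exons share a splice junction in BORA-203, so their listings are not independent. In SRSF1, SRSF2 and RBM39 depletions the 107-base exon was listed and the 46-base exon was not.

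**Figure D2:**
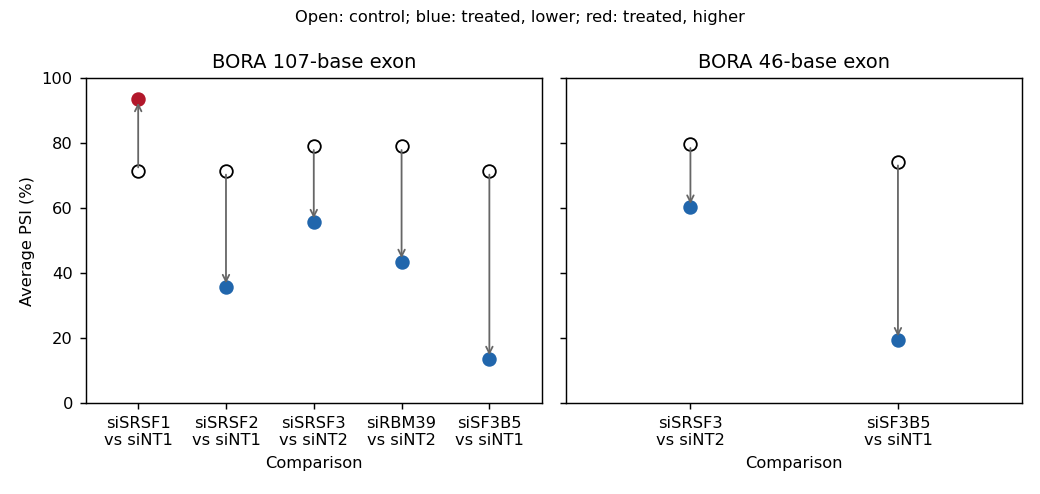
Average PSI in percent (y axis) of the 107-base and 46-base BORA exons in each comparison where they were listed (x axis), with open points for the control group, filled points for the depleted group and arrows from control to depleted. The 107-base exon is above its control after SRSF1 depletion (93.6%) and below it in the 4 other comparisons, down to 13.7% after SF3B5 depletion.

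Neither exon has a length that is a multiple of 3, but their joint 153 bases are. With the 107-base exon computed out of BORA-203, the reading frame of 619 codons ended after 113 codons, at the stop codon marked above, 1345 bases before the last exon junction. Without the 46-base exon alone it ended after 177 codons, 1214 bases before that junction. Without both, the annotated stop codon stayed in frame and 568 codons remained, 51 fewer than in the full transcript. PSI is measured for each exon on its own, so whether the same transcripts skipped both cannot be read from these tables. These are properties of the reference sequence, and the RNA level of BORA was not analysed here.

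After SF3B5 depletion 2 further BORA exons were listed, both coding and both with a length that keeps the frame. The 168-base exon 2 was at 95.4% in siNT1 cells and 68.9% after depletion (26.5 points lower), at chromosome 13, 72728926 to 72729093. The 57-base exon 7 was at 100% and 76.0% (24.0 points lower), at 72744505 to 72744561. Exons 2, 3 and 4 are neighbours, and the exons least included in control cells, 3 and 4, had the larger differences.

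AURKA was listed only in the SF3B5 table, with 4 exons, each lower. Of these, 2 belong to the 5' end of the gene, ahead of the start codon. The 98-base exon (chromosome 20, 56388687 to 56388784, minus strand) was at 24.0% in siNT1 cells and 5.38% after depletion, and the 110-base exon (56390556 to 56390665) was at 34.2% and 17.6%. Both are untranslated, and each was in a minority of transcripts in control cells; how many transcripts lacked both cannot be read from PSI values of single exons. GENCODE has the 98-base exon in 4 and the 110-base exon in 7 of the 13 annotated AURKA transcripts. With 97.9% of listed exons lower in that table, the direction of these exons carries little information. Their changes of 18.6 and 16.7 points were larger than 21.5% and 9.9% of listed changes, so they were small for that table.

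The third AURKA exon, of 139 bases, is coding and is exon 7 of 10 in AURKA-201 (gene ENSG00000087586.17, chromosome 20, 56381433 to 56381571). It lies in the kinase domain and covers codons 189 to 235 of 403. It was at 99.3% in siNT1 cells and at 80.1% after SF3B5 depletion, 19.2 points lower. The fourth, of 189 bases, was at 99.1% and 80.6%. The single annotated AURKA exon of that length is the first exon of a transcript and cannot be a skipped internal exon, so this event was not placed. Both were near full inclusion in control cells, and after depletion most measured transcripts still had them.

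AURKB (gene ENSG00000178999.12, chromosome 17, minus strand) had 9 listings, 7 of them after SF3B5 depletion. The exon of 139 bases of AURKB, exon 6 of 9 in AURKB-214 (8206750 to 8206888), has the same length and place in the kinase domain as that of AURKA. In both genes it stands in a run of exons of 55, 192, 139, 149 and 175 bases. Both sequences are shown because the same depletion listed the matching exon in both kinases; capitals mark bases that are identical at the same position in the other gene.
AURKA exon: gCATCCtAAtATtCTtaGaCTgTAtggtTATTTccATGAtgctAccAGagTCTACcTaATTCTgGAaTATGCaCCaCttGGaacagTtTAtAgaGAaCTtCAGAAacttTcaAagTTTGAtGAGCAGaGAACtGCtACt
AURKB exon: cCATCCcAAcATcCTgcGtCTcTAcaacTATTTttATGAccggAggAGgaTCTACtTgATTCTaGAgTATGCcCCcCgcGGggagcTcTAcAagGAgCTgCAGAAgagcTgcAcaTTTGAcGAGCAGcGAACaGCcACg

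The exons share 85 of 139 bases (61.2%), and no identical run is longer than 6 bases. In AURKB the exon was at 94.7% in siNT1 cells and 62.6% after SF3B5 depletion, 32.2 points lower, against 19.2 points lower in AURKA. These changes were larger than 68.0% and 24.4% of listed changes in that table. No test of the difference between the 2 genes was possible. Taken out of the reference transcripts by computation, the exon shifted the frame in both. AURKA then read 190 of 403 codons and AURKB 141 of 344, with stop codons 317 and 296 bases before the last exon junction.

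The same AURKB exon was also listed through its 3' splice site. A site that adds 46 bases to the exon was used at 11.2% in siNT1 cells and at 51.9% after SF3B5 depletion, 40.8 points higher. In GENCODE, AURKB-204 has an exon that is longer than the 139-base exon by these 46 bases (chromosome 17, 8206889 to 8206934). This match was made after the data were seen. The added bases are shown on the transcript's strand because they carry a stop codon in the frame of the kinase, in capitals.
AURKB extension: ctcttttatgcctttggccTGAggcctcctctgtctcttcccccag

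With the extension, AURKB read 139 codons and stopped 487 bases before the last exon junction. In siNT1 cells 8206640 to 8206749, the 110-base intron that follows the exon, was retained at 3.50%, and after SF3B5 depletion at 29.8%. The next intron, of 1100 bases (8205391 to 8206490), was at 0.705% and 30.1%. Among all introns listed there 93.3% were higher, as both AURKB introns were. An alternative 5' splice site, the first of 4 competing sites by its identifier, was at 14.8% and 46.6%. Its position was not derived. All 2529 listings of alternative splice sites in the 7 tables were higher. The direction of this site, of the 3' site above and of any such site below therefore carries no information. The exon, its 3' site and the 110-base intron share splice junctions, so their listings are not independent. The 1100-base intron follows exon 7 and does not border the 139-base exon, but it comes from the same gene and samples.

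At the 5' end of AURKB, the 103-base exon 3 (8207738 to 8207840) showed the largest change of any listing in the 7 genes. It was at 97.4% in siNT1 cells and 39.0% after SF3B5 depletion, 58.5 points lower and larger than 96.3% of listed changes. After RBM39 depletion it was at 81.4%, against 97.2% in siNT2 cells, 15.8 points lower and larger than 7.5% of listed changes, just inside the listing threshold. Most AURKB transcripts had the exon in both control groups, and after SF3B5 depletion most lacked it. Without it the reference frame ended after 22 of 344 codons.

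The 49-base AURKB exon holds the annotated start codon. It is exon 2 of AURKB-208 (8210177 to 8210225), 48 of its bases are coding, and AURKB-214 has a 73-base version of it. It was at 76.0% in siNT1 cells, 60.2% after SRSF1 depletion and 22.4% after SF3B5 depletion. The first difference, of 15.8 points, was larger than 8.4% of listed changes in its table, and the second, of 53.7 points, was larger than 93.7%. SRSF1 depletion thus listed the BORA exon as higher and this AURKB exon as lower.

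**Figure D3:**
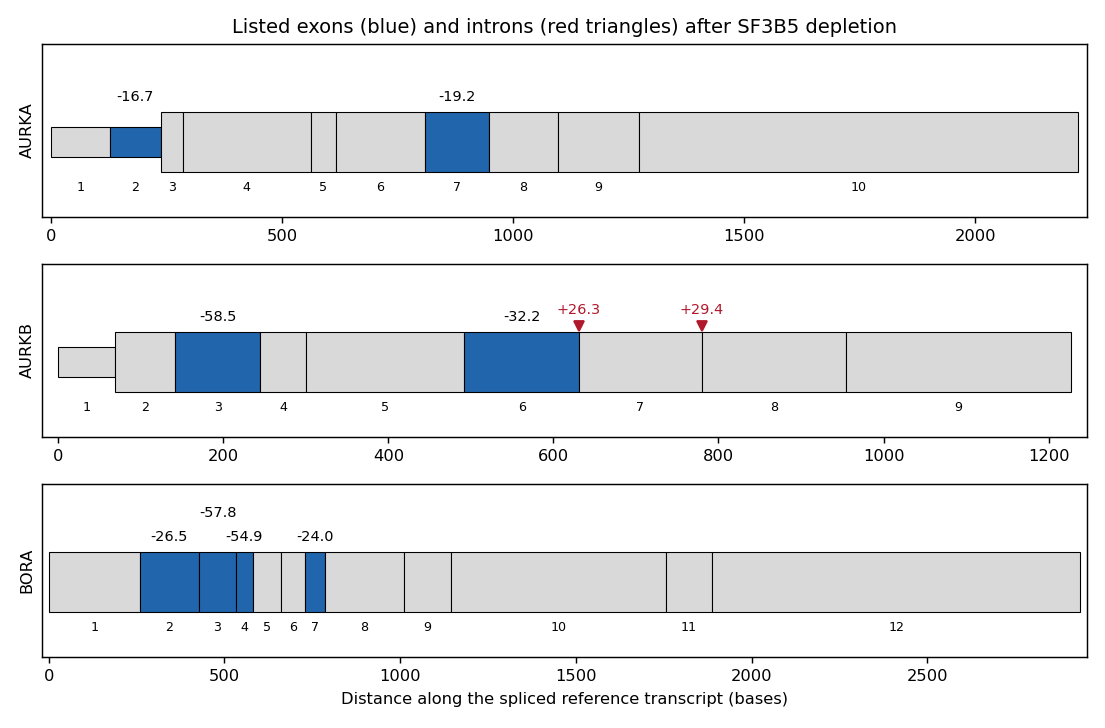
Exons of AURKA-201, AURKB-214 and BORA-203, numbered and drawn to scale along the spliced transcript in bases (x axis), with low boxes for exons that hold no coding base. Blue exons and red triangles mark exons and introns listed after SF3B5 depletion at these places, with the change in PSI in points. Exons 2, 3 and 4 of BORA are neighbours, and the AURKB introns directly follow the 139-base exon 6 and exon 7. The 49-base AURKB exon, the 98-base and 189-base AURKA exons and the alternative splice sites are not drawn.

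TPX2, the activator of Aurora-A, had a single listing. Its 107-base exon 2 of 18 is untranslated (chromosome 20, 31742541 to 31742647, plus strand), and was at 92.2% in siNT1 cells and 71.0% after SF3B5 depletion, 21.2 points lower. The change was larger than 34.1% of those listed. No coding exon of TPX2 was listed.

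**Figure D4:**
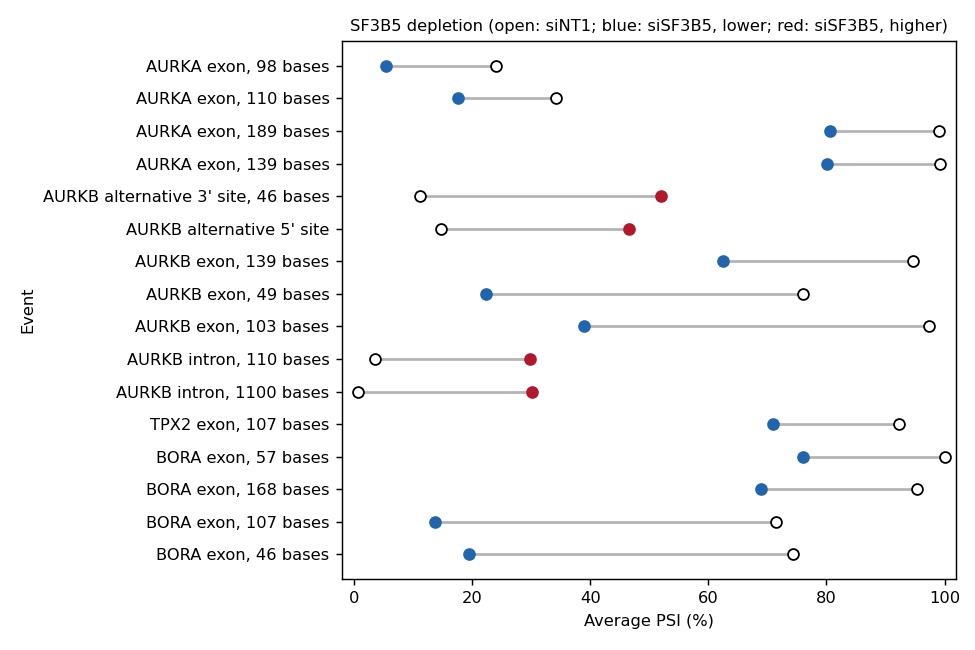
Average PSI in percent (x axis) of the 16 events of AURKA, AURKB, TPX2 and BORA listed after SF3B5 depletion (y axis), with open points for siNT1 and filled points for siSF3B5. All 12 exons are lower, down to 5.38% for the 98-base AURKA exon, and the 2 introns and 2 alternative splice sites of AURKB are higher.

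INCENP had a single listing, a microexon of 12 bases after RBM39 depletion. It was at 20.4% in siNT2 cells and 42.3% after depletion, 21.9 points higher. Higher inclusion is the rarer direction there, with 10.7% of listed exons. By size it ranked 143rd of the 295 higher exons. It is exon 11 of 19 in INCENP-202 (chromosome 11, 62141500 to 62141511, plus strand), and 1 of 6 annotated INCENP transcripts has it. It is shown with 24 bases of each neighbouring exon, the microexon in capitals, because it is the whole difference between these protein forms at this place.
INCENP microexon: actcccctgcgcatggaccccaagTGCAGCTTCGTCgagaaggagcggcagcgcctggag

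The microexon adds 4 codons, 532 to 535, and keeps the frame, with 918 codons in INCENP-202 and 914 without it. At 42.3% the longer reading frame was still in the minority after RBM39 depletion.

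PLK1 had a single listing, after SRSF3 depletion. Its 220-base exon 5 of 10 (PLK1-201, chromosome 16, 23683870 to 23684089, plus strand) was at 99.9% in siNT2 cells and 73.6% after depletion. The difference of 26.2 points was larger than 61.6% of listed changes, in a table with 80.9% of exons lower. The exon covers codons 273 to 346 of 603 and runs from the end of the kinase domain into the linker before the polo-box domain. Without it the frame ended after 380 codons, 245 bases before the last exon junction. PLK1 had no event after SF3B5 depletion, which listed 5046 genes.

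A list of 56 further genes around Aurora-A, Aurora-B and PLK1 was drawn up by role, and 41 of them had an event in some table. MLN8237 listed 1 of the 41 (2.44%, against 2.73% of all genes with an event in any table). SRSF1 depletion listed 8 (19.5%, against 22.4%), SRSF2 depletion 7 (17.1%, against 27.1%) and SRSF3 depletion 13 (31.7%, against 39.4%). SRSF7 depletion listed 6 (14.6%, against 19.7%), RBM39 depletion 14 (34.1%, against 36.5%) and SF3B5 depletion 37 (90.2%, against 71.0%). The share of the list was above that of all genes after SF3B5 depletion only. Genes listed by that depletion alone enter the denominator through it, in the list as among all genes. They raise its share and lower those of the other comparisons, so the higher value there is no result about the list. Under MLN8237 and after SRSF1 and RBM39 depletion the shares were close, so the lower values there are no result about the list. None of these differences was tested. After SF3B5 depletion 82 of 82 exons of the list were lower and 9 of 9 introns were higher, in a table where nearly all were. After SRSF1 depletion 9 of 11 exons of the list were higher, from 6 genes, with 3 of these exons in CDC25C and 2 in CEP192, against 37.4% of all listed exons. After SRSF2 depletion 5 of 7 were higher, from 5 genes, against 26.5% of all listed exons. Exons of 1 gene are not independent, and neither count was tested. After SRSF3 depletion 2 of 12 exons of the list were higher (19.1% of all), after SRSF7 depletion 1 of 11 (21.5%) and after RBM39 depletion 0 of 15 (10.7%).

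**Figure D5:**
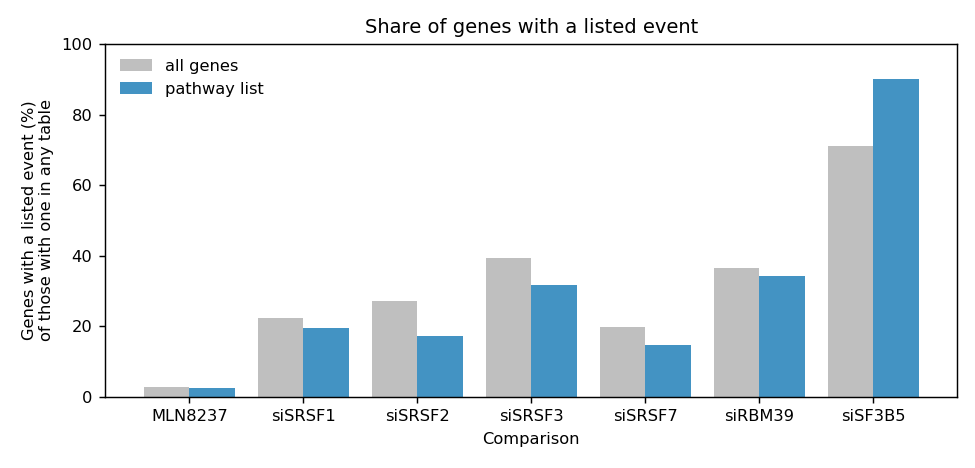
Percent of genes with a listed event (y axis) in each comparison (x axis), of those with an event in any of the 7 tables, for all 7112 genes (grey) and for the 41 genes of the pathway list (blue). The list is at 90.2% and all genes at 71.0% after SF3B5 depletion. Genes listed by that depletion alone enter both denominators through it. In the other 6 comparisons the list is lower, by little under MLN8237 and after SRSF1 and RBM39 depletion.

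The single gene of this list under MLN8237 was FBXW7, the substrate-binding subunit of a ubiquitin ligase. Its 93-base exon was at 73.4% in DMSO and 90.6% in MLN8237, 17.2 points higher. The same exon was lower after SRSF3 depletion (88.6% in siNT2 and 65.7%) and after SRSF7 depletion (85.6% in siNT1 and 69.6%). Both siRNA control groups were above the DMSO cells for this exon. A 50-base FBXW7 exon was at 36.9% in siNT1 cells, and was higher after SRSF2 (70.6%) and SRSF7 depletion (52.05%) but lower after SF3B5 depletion (17.5%). In siNT2 cells it was at 51.5%, and it was lower after SRSF3 (32.0%) and RBM39 depletion (27.7%).

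Of the list, CEP192 was listed in all 6 depletion tables, and FBXW7 and CDC25C in 5 of the 6. CDC25C is the phosphatase that activates CDK1 at mitotic entry. Its 34-base exon was at 61.9% in siNT1 cells, 96.0% after SRSF1 depletion, 83.3% after SRSF2 depletion and 16.2% after SF3B5 depletion. It was at 69.5% in siNT2 cells and 27.5% after RBM39 depletion. The 90-base exon was at 77.3% in siNT1 cells, 96.4% after SRSF1, 55.6% after SRSF7 and 23.6% after SF3B5 depletion, and at 80.5% in siNT2 cells and 33.3% after RBM39 depletion. These exons of CDC25C were higher after SRSF1 depletion and lower after RBM39 and SF3B5 depletion. So was the 95-base exon, at 71.1% in siNT1 cells, 90.6% after SRSF1, 44.1% after SRSF7 and 16.3% after SF3B5 depletion, and at 63.9% in siNT2 cells and 25.035% after RBM39 depletion. A 51-base CDC25C exon was listed after SF3B5 depletion alone, at 88.8% and 31.1%. CDC25B, its relative, had a 123-base exon at 75.1% in siNT2 cells and 38.6% after RBM39 depletion.

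CEP192 is the centrosome scaffold that recruits Aurora-A and PLK1. A 65-base exon of it was at 76.2% in siNT1 cells, 97.9% after SRSF1 depletion and 49.4% after SF3B5 depletion. Another CEP192 exon of 65 bases was at 63.0% in siNT1 cells, 81.9% after SRSF1, 36.8% after SRSF7 and 22.6% after SF3B5 depletion. In siNT2 cells it was at 65.5%, with 87.6% after SRSF3 and 46.4% after RBM39 depletion. It was thus higher after SRSF1 and SRSF3 depletion and lower after SRSF7, RBM39 and SF3B5 depletion. A 149-base CEP192 exon was at 96.7% and 79.2% after SRSF2 depletion, a 174-base exon at 95.7% and 43.2% after SF3B5 depletion, and an alternative 3' splice site at 8.48% in siNT2 cells and 39.7% after RBM39 depletion.

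The 3 largest changes of the list in the SRSF3 table were in spindle and centromere genes. There a 235-base exon of GTSE1, a microtubule-binding protein, was at 99.7% in siNT2 cells and 45.3% after depletion. A 135-base exon of PRC1, which bundles midzone microtubules, was at 72.3% and 28.7%. SGO1, the protector of centromeric cohesion, had a 197-base exon at 98.9% and 63.3%. Other exons of these genes were listed elsewhere. A 58-base GTSE1 exon was at 80.2% in siNT1 cells, 60.5% after SRSF7 and 30.2% after SF3B5 depletion. A 277-base SGO1 exon was at 34.7% in siNT1 cells, 10.1% after SRSF7 and 11.5% after SF3B5 depletion. A 111-base PRC1 exon was at 89.7% and 31.6% after SF3B5 depletion. The 39-base PRC1 exon differed in direction, at 24.8% in siNT1 cells and 42.7% after SRSF2 depletion, and at 25.9% in siNT2 cells, 45.5% after SRSF3 and 9.23% after RBM39 depletion.

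KIF23 and RACGAP1 form centralspindlin, which works in cytokinesis. A 312-base exon of KIF23 was at 31.0% in siNT2 cells and 8.58% after SRSF3 depletion, and at 27.4% in siNT1 cells, 8.07% after SRSF1 and 12.3% after SF3B5 depletion. A 192-base exon of RACGAP1 was at 95.8% in siNT1 cells, 80.2% after SRSF1 and 80.3% after SRSF2 depletion. An alternative 5' splice site of RACGAP1 was at 21.5% in siNT1 cells, 39.4% after SRSF1 and 39.8% after SF3B5 depletion.

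Regulators that oppose the kinases were listed as well. A 105-base exon of PPP6R3, a subunit of the phosphatase that dephosphorylates Aurora-A, was at 32.3% in siNT1 cells, 53.6% after SRSF1 and 48.3% after SRSF2 depletion. A 132-base exon of PPP1R12A, the myosin phosphatase subunit that counteracts PLK1, was at 51.0% in siNT2 cells, 18.4% after SRSF3 and 29.8% after RBM39 depletion. It was at 52.4% in siNT1 cells and 68.0% after SRSF1 depletion, the opposite direction.

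The largest change of the list was in PLK4, the kinase of centriole duplication, whose 103-base exon was at 97.0% in siNT1 cells and 19.8% after SF3B5 depletion. It was at 97.6% in siNT2 cells and 75.6% after RBM39 depletion. PLK3, a relative of PLK1, had a 130-base exon at 79.8% in siNT2 cells and 46.6% after RBM39 depletion. An alternative 5' splice site of the mitotic kinase gene NEK9 was at 19.1% in siNT1 cells and 34.2% after SRSF7 depletion, and at 16.5% in siNT2 cells and 34.4% after SRSF3 depletion.

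Among spindle proteins, NUMA1, which works at the spindle poles, had a 70-base exon at 89.1% in siNT1 cells and 18.9% after SF3B5 depletion, and at 88.6% in siNT2 cells and 71.6% after RBM39 depletion. A 42-base NUMA1 exon was at 18.2% in siNT1 cells and 36.4% after SRSF1 depletion. HMMR, a TPX2-binding protein, had a 45-base exon at 51.3% in siNT2 cells and 13.3% after RBM39 depletion, and at 49.8% in siNT1 cells and 14.9% after SF3B5 depletion.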

How the data were processed

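Stranded poly(A) libraries were made from HEK293T cells, per the labels' protocols. The authors deposited 7 tables of splicing events with, per the file headers, group averages of PSI in percent, an event length, and a score that is the difference of the 2 averages. Cutadapt, Bowtie and hg38 were used, per the submitters' processing notes, and the table names point to VAST-TOOLS. No source used here gives their versions, a read minimum or the listing rule. Depth per event is unknown.

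Tables were read with Python 3.11.15 and pandas 2.3.3. Differences were recomputed as treated minus control. Event types came from the identifiers, with exons of up to 27 bases called microexons. Exons and introns were placed where 1 annotated exon or intron of the gene in GENCODE release 29 (GRCh38, the build of the notes) has the event's length, and sequences and reading frames were read from its transcripts. Counting and frame code was tested on simulated data. Named were all events of the 7 genes and, per table, up to 6 pathway genes with the largest changes, by their largest event; other listings of an event so named, in any table, are given with it. The members and lists were chosen with earlier results of these data known. No test was made, because no replicate values were analysed.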

Additional observations from a re-analysis of the deposited data

How the results depend on the processing

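Counting only changes of at least 25 points left 13 of the 25 listings, in 3 members, with 9 exons lower, 0 higher and a median of 35.5 points. The pathway list then had 0 genes under MLN8237, 1 gene each after SRSF1 and SRSF2 depletion, 2 after SRSF7, 4 after SRSF3, 5 after RBM39 and 24 after SF3B5 depletion. With SF3B5 depletion left out there were 9 listings, with 7 exons lower and a median of 22.1 points. AURKB and BORA tie for the most listings. Without AURKB there were 16 listings (median 22.7 points), and without BORA, an alternative added later, also 16, with 11 exons lower, 1 higher and a median of 24.1 points. Leaving out introns or alternative splice sites gave a median of 24.0 points in both cases. The other 35 values stayed within 1.5 times or were equal. No paired analysis was possible because the tables hold group averages without replicates, and for the same reason no replicate could be left out. Unknown depth limits every PSI.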

Other observations

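AURKAIP1, a gene outside the lists that encodes an Aurora-A interacting protein of mitochondria, was looked up after the values were seen. It was listed after SF3B5 depletion, with an 86-base exon at 98.2% in siNT1 cells and 78.8% after depletion and a 259-base intron at 2.47% and 20.3%. Of the 56 pathway genes, 15 had no event in any table, among them WEE1, CDC20, FOXM1, KIF11 and HASPIN.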
